A study of Arabidopsis thaliana with 18 samples.

Results

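Plants take up sulfate, activate it and then either reduce it or transfer it to other molecules, and 9 genes of these steps are described here in seedlings of Arabidopsis thaliana given jasmonic acid (JA). They are named enzymes of sulfate activation, of the branches that follow it and of glutathione synthesis, and 9 of the 22209 genes in the tables. The choice was made with earlier results of these data known. ATPS2, ATPS4, APK3 and APK4, of the same families, are not among them and are read further below. ATPS1 (AT3G22890) and ATPS3 (AT4G14680) encode ATP sulfurylases. APR1 (AT4G04610), APR2 (AT1G62180) and APR3 (AT4G21990) encode adenosine 5'-phosphosulfate (APS) reductases, and APK1 (AT2G14750) and APK2 (AT4G39940) encode APS kinases. GSH1 (AT4G23100) and GSH2 (AT5G27380) encode the enzymes of glutathione synthesis. All 9 genes passed the filter on low values, and their levels ran from 11.3 to 478 FPKM over all libraries, so the filter bore on none of them.

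RNA was sequenced from whole seedlings of 2 genotypes, wild type (Col-0) and the mutant ecap-2. Seedlings were 6 days old, had grown on 1/2 MS medium with sucrose, and were moved to plates with 50 µM JA for 0, 1 or 3 h, which makes 6 groups of 3 libraries and 18 in all. The 0 h groups of both genotypes are labelled untreated. The series title describes ECAP as an adaptor between JAZ repressors and the co-repressor TPR2. The nature of the ecap-2 allele and the number of seedlings per library are not stated in the labels. Mock treatment at the later times was not analysed here, so JA, the transfer and the time of day cannot be told apart in any comparison with 0 h. Nothing in the labels says whether the replicates were grown separately, and p-values therefore measure only the spread among these libraries, which may be technical.

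ATP sulfurylase joins sulfate to ATP and makes APS, which stands at a branch point. APS reductase commits it to sulfite, sulfide, cysteine and glutathione, and this step is known as a main point of control of sulfate reduction in plants. APS kinase instead phosphorylates APS to 3'-phosphoadenosine 5'-phosphosulfate (PAPS), the sulfate donor of sulfotransferases, among them those that finish glucosinolates, the sulfur-rich defence compounds of the Brassicaceae. Gamma-glutamylcysteine ligase (GSH1) and glutathione synthetase (GSH2) then build glutathione from cysteine, glutamate and glycine, and GSH1 is known as the limiting step. JA is known to induce defence metabolism, glucosinolates included, and transcripts of sulfur assimilation are known to respond to it.

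On JA the APS kinase genes rose and the APS reductase genes fell, APR2 by 1 h and all 3 by 3 h. APK1 and APK2 had risen by 1 h, and APR2 fell further between 1 and 3 h. ATPS1, ATPS3, GSH1 and GSH2 rose at both times. These directions were those of both genotypes. In each genotype 6 of the 9 genes rose and 1 fell at 1 h, and 6 rose and 3 fell at 3 h (limma on log2(FPKM + 1), Benjamini-Hochberg adjusted p under 0.05 over 17835 tested genes). Both genotypes' changes are set against their own 0 h libraries.

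These counts stand beside a broad response, and they are of genes chosen with earlier results of these data known. In wild type at 1 h, 17.3% of all tested genes rose and 16.7% fell, and at 3 h 21.4% rose and 20.1% fell. In ecap-2 the shares were 16.6% and 17.0% at 1 h and 23.1% and 22.2% at 3 h. Libraries rescaled to a common total gave a lower share of rises among the calls at 3 h, 39.2% in place of 51.6% in wild type and 25.9% in place of 51.0% in ecap-2. The median change of the 9 genes on the log2 scale was 0.78 at 1 h and 1.02 at 3 h in wild type. The corresponding medians in ecap-2 were 0.80 and 0.74, against medians over all genes between -0.01 and 0.01. A median hides the split between the branches, which is given gene by gene below.

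The windows around the annotated starts are shown for both kinase genes, which rose, and for APR2, which fell. Each runs from 250 bases before the start to 50 bases after it, 5' to 3' on the gene's own strand, in RefSeq's TAIR10.1 assembly. Capitals mark the single match to the motifs searched.
APK1, chr2:6313633-6313932, plus strand: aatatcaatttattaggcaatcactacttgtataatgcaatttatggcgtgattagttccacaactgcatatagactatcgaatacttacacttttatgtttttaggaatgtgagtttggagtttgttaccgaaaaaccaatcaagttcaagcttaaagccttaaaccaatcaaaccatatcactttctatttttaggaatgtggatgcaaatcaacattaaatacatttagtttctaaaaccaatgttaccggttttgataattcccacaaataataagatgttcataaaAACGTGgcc
APK2, chr4:18519349-18519648, plus strand: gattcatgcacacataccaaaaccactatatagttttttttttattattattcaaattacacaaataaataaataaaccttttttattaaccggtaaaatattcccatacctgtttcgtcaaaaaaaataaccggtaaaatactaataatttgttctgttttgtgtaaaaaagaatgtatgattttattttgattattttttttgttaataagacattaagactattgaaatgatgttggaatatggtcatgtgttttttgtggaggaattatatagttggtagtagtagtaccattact
APR2, chr1:22977836-22978135, minus strand: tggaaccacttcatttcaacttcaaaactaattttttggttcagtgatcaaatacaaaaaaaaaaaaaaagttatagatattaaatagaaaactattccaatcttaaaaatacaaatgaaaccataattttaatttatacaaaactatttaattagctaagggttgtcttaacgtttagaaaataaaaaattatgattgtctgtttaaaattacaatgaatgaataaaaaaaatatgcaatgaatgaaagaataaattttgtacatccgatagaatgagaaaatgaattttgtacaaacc

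Motifs were searched on both strands of these 300 bases. GAGAC, the core of an element known from sulfur-responsive promoters, was in 0 of the 9 windows and in 32.8% of 27443 windows of all genes. CACGTG, the G-box, was in 0 of 9 windows and in 7.68% of all. AACGTG, a related T/G-box letter string known from JA-responsive genes, was in 1 of 9 and in 8.95% of all. That match lies in APK1 from position 42 after the start, inside the transcribed region. None of the 3 strings overlaps another there, and such a match is a description of letters and not a measured binding site.

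ATP sulfurylase feeds both branches, and ATPS1 was the most abundant of its family. ATPS1 stood at 209, 232 and 247 FPKM in the wild type libraries at 0 h, at 322, 372 and 305 FPKM at 1 h and at 292, 320 and 303 FPKM at 3 h. In ecap-2 it stood at 299, 284 and 333 FPKM, then 460, 426 and 364 FPKM, then 437, 478 and 393 FPKM. Every JA library lay above every 0 h library of its genotype, and 1 and 3 h overlapped. On the log2 scale the rise in wild type was 0.53 ± 0.10 at 1 h and 0.41 ± 0.10 at 3 h (SE; adjusted p = 4.7e-04 and 0.0032). In ecap-2 it was 0.44 ± 0.10 (adjusted p = 0.0023) and 0.51 ± 0.10 (adjusted p = 5.0e-04). ATPS1 thus rose by 1.33 to 1.45 times in FPKM.

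ATPS3, a second ATP sulfurylase gene of low level, rose more in relative terms. Its mean in wild type was 14.0 ± 3.0 FPKM (SD, n = 3) at 0 h, 38.0 ± 0.39 FPKM at 1 h and 29.2 ± 3.6 FPKM at 3 h. In ecap-2 the means were 15.3 ± 2.3, 32.4 ± 4.4 and 26.2 ± 4.2 FPKM. The 1 h rise was 1.40 ± 0.15 on the log2 scale in wild type (adjusted p = 1.2e-06) and 1.04 ± 0.15 in ecap-2 (adjusted p = 3.3e-05). At 3 h the rise was 1.02 and 0.74, adjusted p = 3.0e-05 and 6.3e-04. The step from 1 to 3 h was -0.38 in wild type (adjusted p = 0.065) and -0.30 in ecap-2 (adjusted p = 0.11), neither past the threshold. Some other fits called it a fall. In wild type these were a pseudocount of 5 (0.049), a common total (0.033) and the compared libraries only (0.015). In ecap-2 they were a common total (-0.48, adjusted p = 0.011) and leaving out replicate 2 of 3 h (0.044).

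Among the listed genes the family has further members, ATPS2 and ATPS4. Of the summed FPKM of all 4 sulfurylase genes in wild type, ATPS1 held 62.4% ± 2.8 (SD, n = 3) at 0 h, 66.9% ± 2.0 at 1 h and 67.1% ± 0.40 at 3 h. In ecap-2 its share was 73.3% ± 1.0, 76.1% ± 1.7 and 78.3% ± 0.65. ATPS3 went from 3.79% ± 0.67 to 7.69% ± 0.63 of the family in wild type between 0 and 1 h. The summed level went from 368 ± 14 to 497 ± 37 FPKM, and ATPS1 and ATPS3 were the sulfurylase genes that rose at 1 h. ATPS1 and ATPS3 share 81.7% of aligned coding bases, with a longest identical run of 50 bases between their transcripts, so reads from such runs may have been split between them.

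APS reductase genes fell, and APR2 fell first and furthest. APR2 stood at 200, 212 and 226 FPKM in wild type at 0 h, at 97.9, 114 and 67.1 FPKM at 1 h and at 40.2, 63.2 and 47.5 FPKM at 3 h. In ecap-2 it stood at 255, 235 and 227 FPKM, then 128, 132 and 73.5 FPKM, then 50.8, 77.2 and 54.3 FPKM. The 0 h libraries lay above all JA libraries in both genotypes. Between 1 and 3 h the libraries lay apart in wild type and overlapped in ecap-2. In wild type APR2 fell by 1.22 at 1 h and by 2.08 at 3 h on the log2 scale (SE 0.24 for both, adjusted p = 9.9e-04 and 5.2e-06). In ecap-2 it fell by 1.14 (adjusted p = 0.0016) and by 1.98 (adjusted p = 7.9e-06). At 3 h APR2 was at 0.236 times its 0 h mean in wild type and at 0.254 times in ecap-2. Only 45 of the 17835 tested genes had a lower log2 change than APR2 in wild type at 3 h.

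APR3 held its level at 1 h within the spread and fell afterwards. It stood at 132, 144 and 187 FPKM in wild type at 0 h, at 159, 164 and 111 FPKM at 1 h and at 72.1, 94.8 and 73.1 FPKM at 3 h. In ecap-2 the libraries held 177, 157 and 184 FPKM, then 221, 202 and 129 FPKM, then 85.1, 121 and 76.7 FPKM. The 3 h libraries lay below all 0 h and 1 h libraries of their genotype. The change at 1 h was -0.10 in wild type (95% interval -0.57 to 0.37) and 0.05 in ecap-2 (-0.42 to 0.52), neither past the threshold. At 3 h APR3 fell by 0.93 in wild type (SE 0.22, adjusted p = 0.0031) and by 0.89 in ecap-2 (adjusted p = 0.0040).

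APR1 had the smallest fall of the reductase genes at 3 h against 0 h. Its libraries in wild type held 80.1, 88.6 and 116 FPKM at 0 h, 90.7, 98.7 and 68.1 FPKM at 1 h and 59.1, 77.5 and 63.2 FPKM at 3 h. In ecap-2 they held 86.4, 91.3 and 108 FPKM, then 131, 132 and 88.1 FPKM, then 56.4, 73.8 and 57.4 FPKM. At 3 h every library lay below the 0 h libraries, by a small margin in wild type. APR1 fell by 0.49 at 3 h in wild type (SE 0.18, adjusted p = 0.043) and by 0.60 in ecap-2 (SE 0.18, adjusted p = 0.015). These calls are weak. In wild type the adjusted p was 0.067 without replicate 2 and 0.18 without replicate 3 of 0 h, and 0.14 without replicate 1 and 0.11 without replicate 3 of 3 h, and in ecap-2 it was 0.064 without the third 0 h library, 0.059 without the first 3 h library and just above 0.05 without the last one, so each of these ended the call. At 1 h the change was -0.14 in wild type and 0.28 in ecap-2, with 95% intervals of -0.53 to 0.25 and -0.12 to 0.67.

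**Figure D1:**
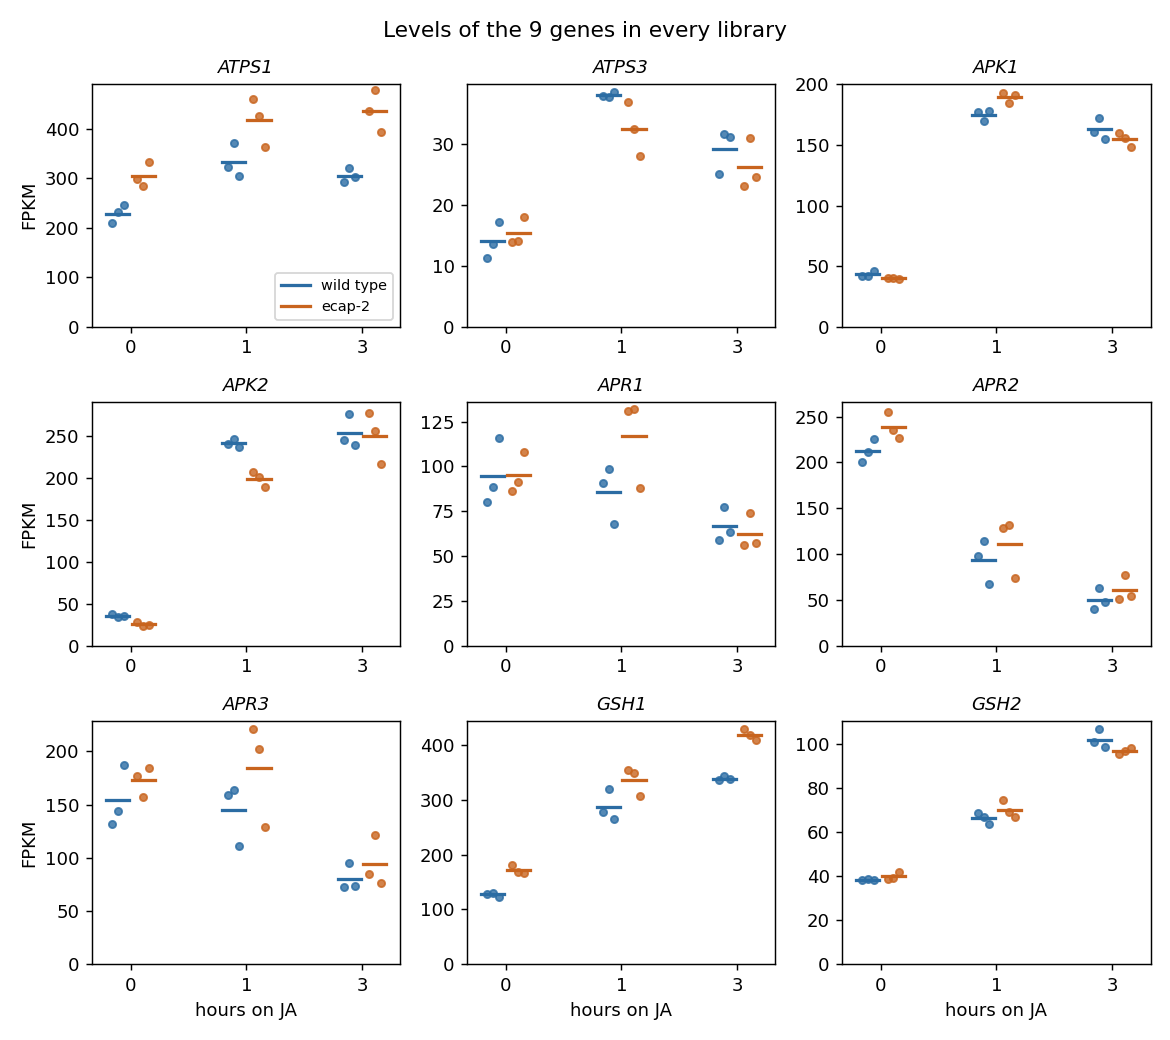
Level in FPKM (linear axis from 0) of each gene in every library against hours on JA, with wild type in blue and ecap-2 in orange; points are libraries and bars are means of 3. APK1 and APK2 lie at 46.2 FPKM or below at 0 h and at 148 FPKM or above on JA, while APR2 goes from 200 or more to 77.2 or less at 3 h.

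The replicates of 1 h were not alike for the reductases. In both genotypes the third 1 h library had the lowest level of APR1, APR2 and APR3. The summed reductase level there was 246 FPKM in wild type, against 348 and 378 FPKM in the other libraries, and 290 FPKM in ecap-2, against 479 and 466 FPKM. The summed kinase level lay between 415 and 418 FPKM in the 3 wild type libraries at 1 h. In ecap-2 it was 400, 386 and 381 FPKM. ATPS1, APK2, GSH1 and GSH2 also had their lowest 1 h level in the third library of both genotypes, by smaller margins. APK1 did not. Whether the third libraries were collected apart from the others is not given in the sources used here.

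With APR2 falling first, the makeup of the reductase transcripts shifted. APR2 made up 46.3% ± 3.1 (SD, n = 3) of the summed FPKM of APR1, APR2 and APR3 in wild type at 0 h, 28.6% ± 1.6 at 1 h and 25.4% ± 1.7 at 3 h. In ecap-2 the share was 47.2% ± 3.0, 26.8% ± 1.5 and 27.9% ± 1.3. APR3 was the most abundant reductase gene on JA, with 44.8% ± 1.1 in wild type and 44.6% ± 1.4 in ecap-2 at 1 h. APR1 held 20.4% ± 1.3 in wild type at 0 h and 33.9% ± 0.88 at 3 h. The summed level of the 3 genes was 462 ± 60 FPKM at 0 h, 324 ± 69 FPKM at 1 h and 197 ± 34 FPKM at 3 h in wild type, and 507 ± 20, 412 ± 110 and 217 ± 47 FPKM in ecap-2.

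These genes are close copies, which bears on how far reads can be assigned. Coding identity was 82.4% between APR1 and APR3, 76.4% between APR2 and APR3 and 75.7% between APR1 and APR2, with longest identical runs of 41, 28 and 23 bases between transcripts. APR2 (chr1:22975530-22977885, minus strand, TAIR10.1) overlaps AT1G62170 on the other strand over 225 bases, and that gene was at or below 0.0104 FPKM in each group mean. A long noncoding RNA gene, AT1G08477, overlaps APR2 over 782 bases and was not analysed here. APR3 (chr4:11657008-11659167, minus strand) overlaps AT4G21980 over 27 bases, and APR1 (chr4:2324878-2327064, plus strand) overlaps AT4G04614 over 21 bases. Both of these were expressed. AT4G21980 had means of 51.4, 38.2 and 43.8 FPKM at 0, 1 and 3 h in wild type and 24.0, 23.8 and 9.99 FPKM in ecap-2. AT4G04614 had group means from 9.78 to 12.1 FPKM. Whether the counting used strand is not given in the sources used here, so reads of such overlaps cannot be told apart.

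APS kinase genes had the largest rises of the 9 genes. APK1, at chr2:6313883-6316047 on the plus strand, stood at 42.2, 42.3 and 46.2 FPKM in wild type at 0 h, at 177, 170.0 and 178 FPKM at 1 h and at 161, 172 and 155 FPKM at 3 h. In ecap-2 it stood at 40.3, 40.0 and 39.6 FPKM, then 193, 185 and 191 FPKM, then 160.0, 156 and 148 FPKM. The JA libraries lay far above the 0 h libraries, and the spread within a group was small. In wild type the rise was 1.98 ± 0.06 and 1.88 ± 0.06 on the log2 scale at 1 and 3 h (adjusted p = 5.6e-14 and 1.2e-13). In ecap-2 it was 2.22 ± 0.06 (adjusted p = 1.3e-14) and 1.93 ± 0.06 (adjusted p = 5.4e-14). Between 1 and 3 h APK1 in ecap-2 fell by 0.29 (SE 0.06, adjusted p = 5.6e-04), and in wild type the step was -0.11 (adjusted p = 0.16).

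APK2, at chr4:18519599-18521605 on the plus strand, had the largest rise of the 9 genes. It stood at 37.4, 34.2 and 35.9 FPKM in wild type at 0 h, at 241, 247 and 237 FPKM at 1 h and at 246, 277 and 240.0 FPKM at 3 h. In ecap-2 it stood at 28.1, 23.9 and 24.6 FPKM, then 207, 201 and 189 FPKM, then 278, 257 and 217 FPKM. At 0 h all ecap-2 libraries lay below all wild type libraries, and at 3 h the genotypes overlapped. The rise in wild type was 2.72 ± 0.09 and 2.79 ± 0.09 at 1 and 3 h (adjusted p = 2.0e-13 and 1.5e-13). In ecap-2 it was 2.92 ± 0.09 (adjusted p = 5.4e-14) and 3.24 ± 0.09 (adjusted p = 2.4e-14), or 7.80 and 9.83 times in FPKM. From 1 to 3 h APK2 rose by 0.33 in ecap-2 (adjusted p = 0.0061), but after rescaling to a common total the step was 0.14 (adjusted p = 0.14) and after quantile normalization 0.19 (adjusted p = 0.067).

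At 0 h APK1 and APK2 together held 81.2% ± 1.8 (SD, n = 3) of the summed FPKM of the 4 kinase genes in wild type, and at 1 h they held 95.1% ± 0.43. The other 2, APK3 and APK4, were at 6.12 and 12.3 FPKM in wild type at 0 h. Within the pair the share of APK2 went from 45.2% ± 1.7 to 58.0% ± 1.1 and 61.0% ± 0.67 in wild type and from 38.9% ± 1.9 to 51.2% ± 1.2 and 61.7% ± 2.1 in ecap-2. APK1 and APK2 share 67.2% of aligned coding bases, with a longest identical run of 14 bases, and no annotated gene overlaps either.

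Set against each other, the kinase and reductase transcripts changed places. The summed FPKM of APK1 and APK2 over that of the 3 reductases was 0.193, 0.172 and 0.155 in the wild type libraries at 0 h. At 1 h it was 1.20, 1.10 and 1.69, and at 3 h 2.38, 1.90 and 2.14. The kinases thus went from a minor part of the transcripts of the branch point to the greater part in wild type at 1 h. In ecap-2 the ratio was 0.132, 0.132 and 0.124 at 0 h, 0.835, 0.829 and 1.31 at 1 h and 2.28, 1.52 and 1.93 at 3 h. No library on JA overlapped a 0 h library. At 0 h and with no test, the ecap-2 libraries lay below the wild type libraries, with a mean of 0.129 ± 0.0050 against 0.174 ± 0.019. At 1 and 3 h the genotypes overlapped. A ratio within a library does not depend on how libraries are scaled, and transcript levels are not enzyme activities.

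**Figure D2:**
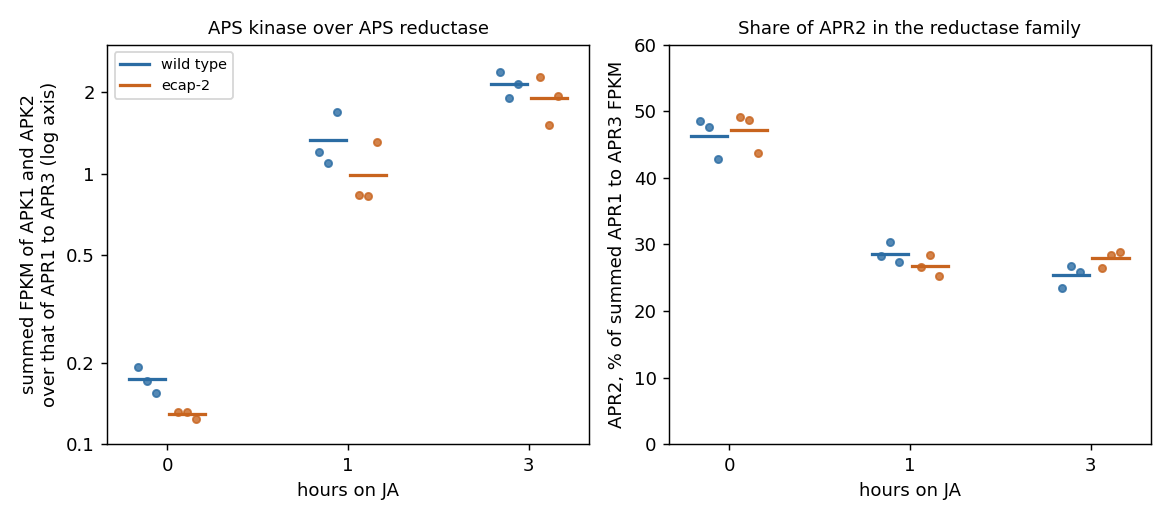
Left, summed FPKM of APK1 and APK2 over summed FPKM of APR1, APR2 and APR3 (log axis) against hours on JA; right, APR2 as a percentage of the summed FPKM of the 3 reductase genes. Points are libraries and bars are means of 3; the mean ratio goes from 0.174 to 2.14 in wild type and from 0.129 to 1.91 in ecap-2 between 0 and 3 h.

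Transcripts for both steps of glutathione synthesis rose. GSH1, at chr4:12102135-12107695 on the minus strand, stood at 128, 131 and 123 FPKM in wild type at 0 h, at 278, 320.0 and 266 FPKM at 1 h and at 336, 344 and 338 FPKM at 3 h. In ecap-2 it stood at 181, 169 and 166 FPKM, then 354, 350.0 and 307 FPKM, then 429, 418 and 410.0 FPKM. The 3 times lay apart in each genotype. The rise from 0 h was 1.17 ± 0.07 at 1 h and 1.40 ± 0.07 at 3 h in wild type (adjusted p = 9.9e-10 and 6.3e-11). In ecap-2 it was 0.96 ± 0.07 and 1.28 ± 0.07 (adjusted p = 1.1e-08 and 2.0e-10). The step from 1 to 3 h in wild type, 0.24 ± 0.07 (adjusted p = 0.018), gave an adjusted p of 0.091 without the third 1 h library, 0.057 without the first and 0.055 without the second 3 h library. In ecap-2 that step was 0.32 ± 0.07 (adjusted p = 0.0020), and 0.13 (adjusted p = 0.11) after rescaling to a common total.

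GSH2 rose more slowly and with little spread. Its libraries in wild type held 38.1, 38.9 and 38.2 FPKM at 0 h, 68.7, 67.0 and 63.9 FPKM at 1 h and 101, 107 and 98.6 FPKM at 3 h. In ecap-2 they held 38.5, 39.3 and 41.8 FPKM, then 74.7, 69.1 and 66.8 FPKM, then 95.3, 97.0 and 98 FPKM. Each time lay above the one before in both genotypes. The rise was 0.78 ± 0.05 at 1 h and 1.39 ± 0.05 at 3 h in wild type (adjusted p = 6.9e-09 and 2.9e-12), and 0.80 ± 0.05 and 1.26 ± 0.05 in ecap-2 (adjusted p = 4.3e-09 and 9.3e-12). GSH1 stood at 3.32 ± 0.086 times the level of GSH2 in wild type at 0 h, at 4.33 ± 0.39 times at 1 h and at 3.32 ± 0.099 times at 3 h. In ecap-2 that ratio was 4.32 ± 0.37, 4.80 ± 0.24 and 4.33 ± 0.16.

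**Figure D3:**
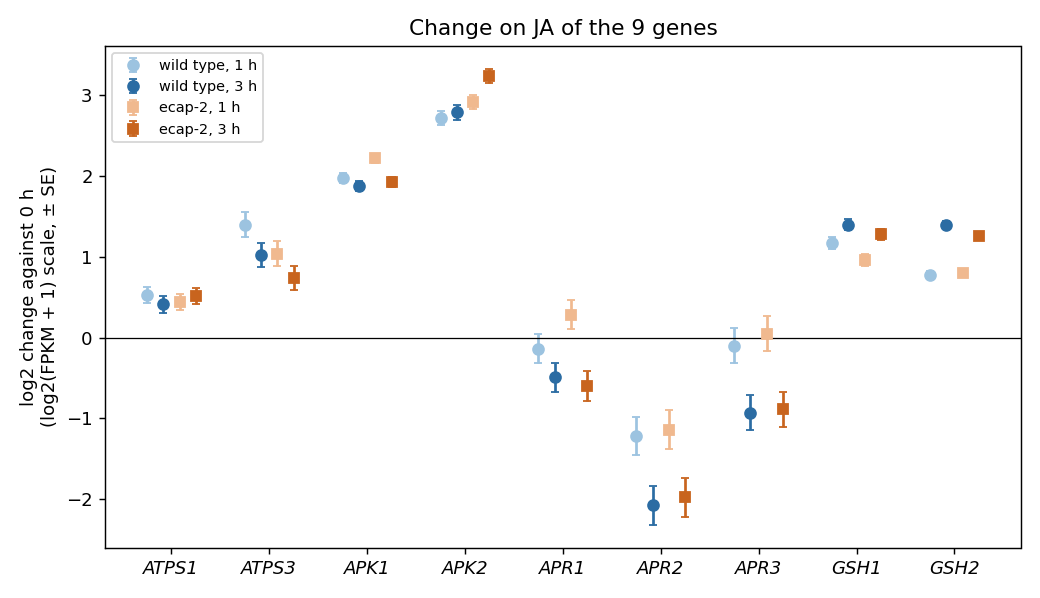
Change of each gene on JA against 0 h of the same genotype on the log2(FPKM + 1) scale, at 1 h (light) and 3 h (dark), with wild type as circles and ecap-2 as squares; bars are ± SE of the fit. The kinases lie between 1.88 and 3.24, ATPS1, ATPS3, GSH1 and GSH2 between 0.41 and 1.40, and the reductases between -2.08 and 0.28.

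Between 1 and 3 h most of the movement was in transcripts of the reductases and of glutathione synthesis. In wild type 2 of the 9 genes rose over that step and 2 fell, against 14.5% of all genes in each direction. GSH1 and GSH2 rose, and APR2 and APR3 fell. In ecap-2 3 rose and 4 fell, against 20.9% and 19.7% of all genes, where the share of rises among all calls was 51.4% and 22.9% after rescaling to a common total. There APK2, GSH1 and GSH2 rose and APR1, APR2, APR3 and APK1 fell. In both genotypes the call of APR2 was fragile. The step of -0.87 in wild type had an adjusted p of 0.013, which was 0.063 without the first 3 h library, 0.060 without the second 1 h library and 0.054 in a fit of the compared libraries only. In ecap-2 the step was -0.84 (adjusted p = 0.012), with 0.056 without the second 1 h library and 0.053 without the first 3 h library, and just above 0.05 without the first 1 h library, and the call was lost in each.

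The rest of the pathway was read from 7 lists of 61 genes, of which 56 were in the tables. Genes of those lists that lacked values, SERAT2;2, OASB, CLT2, SOT18 and HY5 among them, were not analysed here. Of 5 other sulfate assimilation enzymes, 2 rose and 0 fell in wild type at 1 h and 2 rose and 0 fell at 3 h. At 1 h the call of APK4 (0.27, adjusted p = 0.021) was lost without replicate 3 of 0 h (0.12) or replicate 2 of 1 h (0.11), and at 3 h that of ATPS4 (0.18, adjusted p = 0.045) without any 1 of 5 libraries (0.066 to 0.14), which leaves SIR alone. SIR, sulfite reductase and the next step after APS reductase, rose from 154 ± 7.8 FPKM (SD, n = 3) to 224 ± 11 FPKM at 1 h and 221 ± 15 FPKM at 3 h in wild type. That was a log2 rise of 0.54 ± 0.07 and 0.52 ± 0.07 (adjusted p = 4.8e-06 and 6.0e-06), and in ecap-2 the rise was 0.44 and 0.53. SIR thus rose at both times. Of the reductases before it, APR2 alone fell at 1 h, and APR1 (a weak call), APR2 and APR3 fell at 3 h. The median change of these 5 genes was 0.07 in wild type at 1 h and 0.04 at 3 h.

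In ecap-2 1 of the 5 rose and 0 fell at 1 h, and 3 rose and 2 fell at 3 h. The APK3 change at 3 h (-0.27, adjusted p = 0.030) lost its call in a fit of the compared libraries only (0.075). It was also lost without replicate 3 of 0 h (0.13) or replicate 1 of 3 h (0.14). The APK4 rise at 3 h (0.35, adjusted p = 0.0032) was lost at a common total (0.12). At 1 h APK4 passed with trimmed mean scaling (0.049) and the replicate block (0.048). ATPS2, the sulfurylase known for forms in more than 1 compartment, fell by 0.49 in ecap-2 at 3 h (adjusted p = 5.4e-05), against -0.14 in wild type (adjusted p = 0.16). The difference of these responses, -0.35 ± 0.11, had an adjusted p of 0.087.

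Of 11 tested sulfate transporters, 4 rose and 2 fell in wild type at 1 h, and 5 rose and 2 fell at 3 h, with medians of -0.12 and 0.01. In ecap-2 4 rose and 3 fell at 1 h and 4 rose and 1 fell at 3 h. There the rises of SULTR2;1 at 1 h (adjusted p = 0.043) and SULTR3;2 at 3 h (0.042) were lost in several other fits (up to 0.18 and 0.37). The wild type rise of SULTR3;4 at 3 h (0.029) was lost at a common total (0.078) and without some single libraries (0.061 to 0.095). In some fits SULTR2;2 in wild type and SULTR1;1, SULTR1;2 and SULTR3;3 in ecap-2 gained a call at 3 h. SULTR1;2, a main root uptake transporter, went from 27.2, 33.0 and 38.7 FPKM in wild type at 0 h to 111, 136 and 79.9 FPKM at 1 h and 87.1, 96.1 and 66.1 FPKM at 3 h. In ecap-2 it stood at 14.8, 16.3 and 21.5 FPKM, then 81.2, 72.7 and 34.3 FPKM, then 34.4, 34.3 and 21.9 FPKM. The rise at 1 h was 1.68 ± 0.30 in wild type and 1.71 ± 0.30 in ecap-2 (adjusted p = 5.2e-04 and 4.8e-04). As for the reductases, the third 1 h library was the lowest in each genotype. SULTR4;1, which releases sulfate from the vacuole, rose by 0.84 ± 0.17 at 1 h in wild type (adjusted p = 9.8e-04). SULTR2;1, known from transport between root and shoot, rose by 0.90 ± 0.10 in wild type and 0.99 ± 0.10 in ecap-2 at 3 h (adjusted p = 2.1e-06 and 6.8e-07). In wild type at 1 h it was at 0.27 (adjusted p = 0.058), which passed with the replicate block (adjusted p = 0.045) and without replicate 3 of 0 h or replicate 1 of 1 h (0.037 and 0.030).

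Cysteine synthesis, which takes up the sulfide, was covered by 6 tested genes. Of these 2 rose and 2 fell at 1 h, and 3 rose and 2 fell at 3 h, in both genotypes. In ecap-2 at 3 h the rise of OASA1 (0.29, adjusted p = 0.0013) lost its call at a common total (0.12) and under quantile normalization (0.21). OASC, the mitochondrial O-acetylserine (thiol) lyase, rose from 34.6 ± 1.4 to 100 ± 7.2 FPKM at 1 h in wild type, by 1.5 ± 0.07 on the log2 scale (adjusted p = 1.4e-11). SERAT1;1, a cytosolic serine acetyltransferase, rose from 54.2 ± 4.8 to 115 ± 3.1 FPKM, by 1.08 ± 0.07 (adjusted p = 4.1e-09). SERAT3;2, a minor isoform, fell from 8.11 to 1.99 FPKM, by 1.60 ± 0.18 (adjusted p = 2.4e-06), and SERAT3;1 fell by 0.34 (adjusted p = 0.011, but 0.067 without replicate 3 of 1 h). In ecap-2 at 1 h OASC rose by 1.22, SERAT1;1 rose by 1.15 and SERAT3;2 fell by 1.28. There the fall of SERAT3;1 by 0.30 (adjusted p = 0.021) lost its call without replicate 2 or 3 of 0 h or replicate 1 of 1 h (0.060 to 0.084), which leaves 1 fall.

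Past glutathione, of 13 tested genes of its reduction, transport and breakdown, 6 rose and 2 fell in wild type at 1 h and 7 rose and 2 fell at 3 h. In ecap-2 7 rose and 2 fell at each time. Some of the ecap-2 rises at 1 h lost their calls without single libraries (adjusted p = 0.081 to 0.11). In wild type at 1 h a fall lost its call in a fit of the compared libraries only (0.064). GGP1, a gamma-glutamyl peptidase that processes glutathione conjugates in glucosinolate synthesis, went from 76.0, 87.3 and 82.3 FPKM to 468, 558 and 448 FPKM at 1 h in wild type, a rise of 2.57 ± 0.10 (adjusted p = 1.7e-12). At 3 h its rise was 1.98 ± 0.10 in wild type and 1.97 ± 0.10 in ecap-2. GGT4, a vacuolar gamma-glutamyl transferase, rose by 1.00 ± 0.08 and CLT1, a plastid thiol transporter, by 1.15 ± 0.14 in wild type at 1 h (adjusted p = 5.6e-08 and 3.5e-06). GR1, a glutathione reductase, fell from 215 to 155 FPKM at 1 h and to 128 FPKM at 3 h, by 0.47 ± 0.08 and 0.74 ± 0.08 (adjusted p = 2.1e-04 and 1.1e-06). GR2, the organellar reductase, fell by 0.33 ± 0.05 at 3 h (adjusted p = 3.5e-05).

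Past PAPS, of 6 tested genes of its use and of the removal of its by-product, 5 rose and 0 fell in wild type at each time, and in ecap-2 6 rose at 1 h and 5 at 3 h with 0 falls. In ecap-2 at 1 h a call among these was lost without the third 1 h library (adjusted p = 0.057). The median change of the 6 genes in wild type was 1.70 at 1 h and 1.35 at 3 h. SOT16 and SOT17, sulfotransferases that finish indolic and aliphatic glucosinolates, rose by 1.88 ± 0.07 and 2.41 ± 0.08 at 1 h in wild type (adjusted p = 1.4e-12 and 7.4e-13). ST2A, which sulfates a hydroxylated jasmonate, rose by 2.91 ± 0.14 at 1 h and 3.35 ± 0.14 at 3 h (adjusted p = 3.8e-11 and 5.1e-12). SAL1, the phosphatase that removes the by-product PAP, rose from 56.7 to 166 FPKM at 1 h, by 1.53 ± 0.07 (adjusted p = 4.4e-11). PAPST1, which carries PAPS out of the plastid, rose by 0.49 ± 0.09 at 1 h and by 1.14 ± 0.09 at 3 h (adjusted p = 4.0e-04 and 2.4e-08). These are the genes on the product side of APK1 and APK2.

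**Figure D4:**
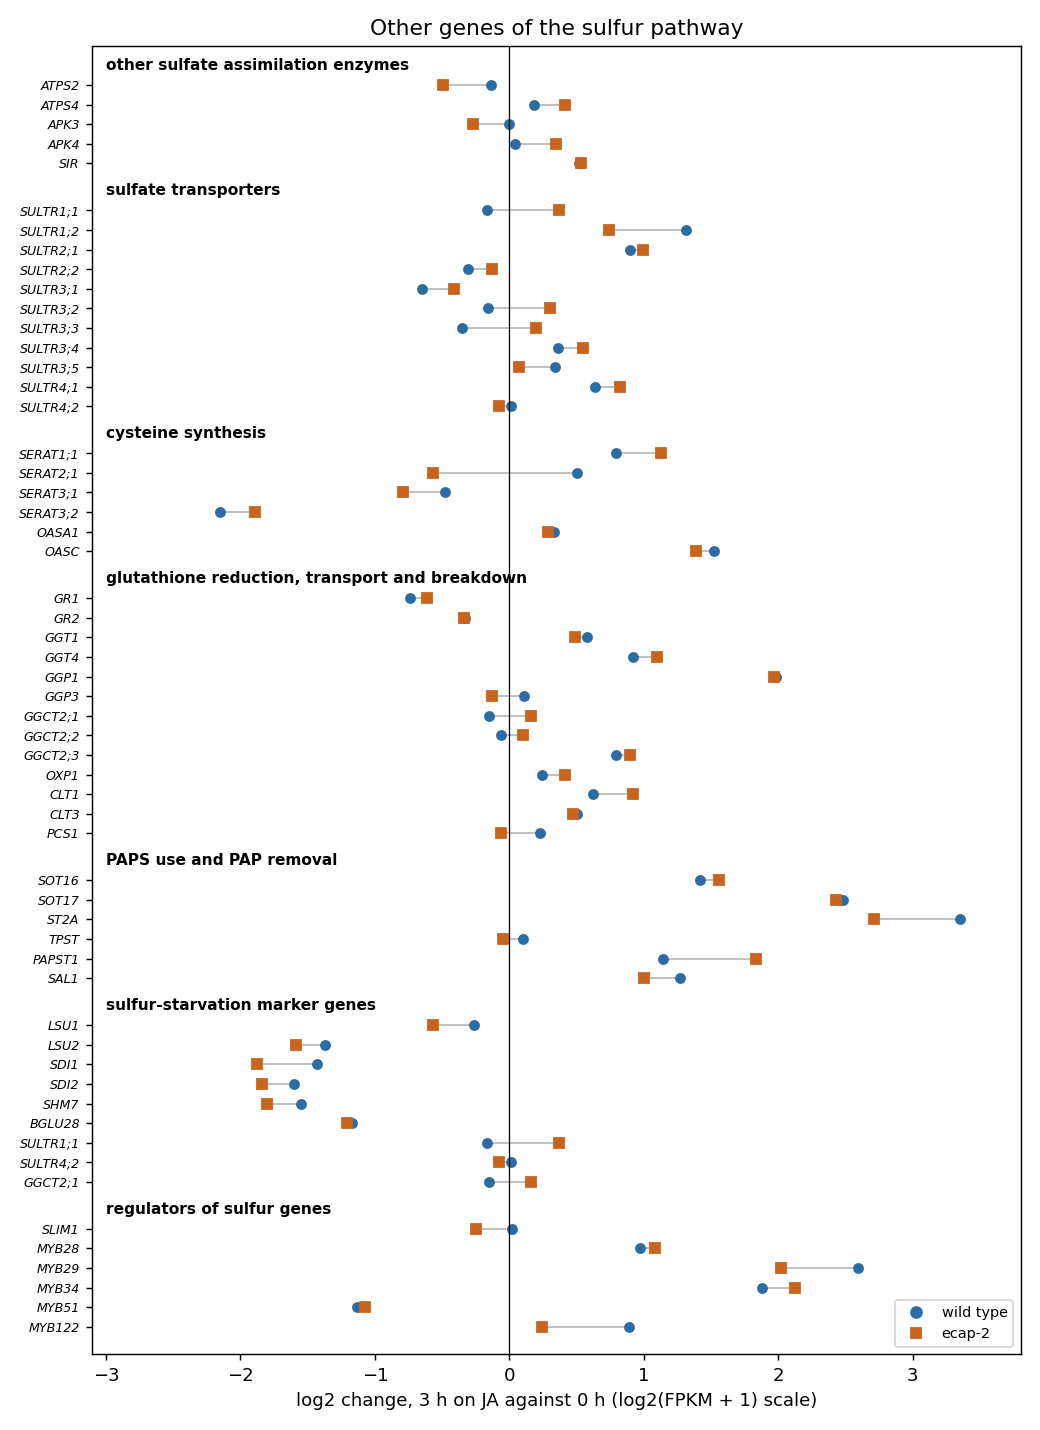
Change at 3 h on JA against 0 h on the log2(FPKM + 1) scale for every tested gene of the 7 lists, with wild type as circles and ecap-2 as squares. SULTR1;1, SULTR4;2 and GGCT2;1 stand in 2 lists; genes of PAPS use lie mostly above 0 and 6 of the sulfur-starvation markers lie below 0 in both genotypes.

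Of 9 marker genes of sulfur starvation, 3 fell and 0 rose at 1 h and 5 fell and 0 rose at 3 h, in each genotype. Their median change was -0.56 at 1 h and -1.17 at 3 h in wild type. SHM7 fell by 1.08 ± 0.29 at 1 h and 1.55 ± 0.29 at 3 h in wild type (adjusted p = 0.0090 and 5.2e-04). LSU2 fell by 1.24 and 1.37 (adjusted p = 0.0094 and 0.0038), and SDI2 fell by 0.99 and 1.60 (adjusted p = 0.0017 and 1.8e-05). SDI1, known as a repressor of glucosinolate synthesis, fell by 1.43 at 3 h (adjusted p = 0.0094). BGLU28 was at the threshold at 3 h, at -1.17 (adjusted p = 0.050), and its adjusted p was 0.055 to 0.18 in wild type without any 1 of the 6 libraries. In ecap-2 its call at 3 h was lost with the compared libraries only (0.060) and without some single libraries (0.056 to 0.18). GGCT2;1 had a higher mean at 1 h than at 0 h and was not called. It went from 5.46 to 11.9 FPKM in wild type and from 9.94 to 21.4 FPKM in ecap-2. In ecap-2 at 1 h the falls of LSU2, SDI2 and SHM7 lost their calls without the third 1 h library (adjusted p = 0.095, 0.061 and 0.16), LSU2 and SHM7 also without the third 0 h library (0.066 and 0.15) and SHM7 without the second 0 h library (0.054). In wild type at 3 h the markers other than BGLU28 kept their calls in the fits tried.

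Of 6 tested regulators of sulfur genes, 4 rose and 1 fell in wild type at each time. MYB34, an activator of indolic glucosinolate genes, went from 32.9, 30.2 and 25.9 FPKM to 136, 166 and 155 FPKM at 1 h, a rise of 2.33 ± 0.12 (adjusted p = 1.2e-10). MYB28 and MYB29, activators of the aliphatic branch, rose by 0.97 ± 0.16 and 2.59 ± 0.18 at 3 h (adjusted p = 1.0e-04 and 3.3e-09). The MYB28 call at 1 h in wild type was lost without replicate 3 of 0 h (adjusted p = 0.059). MYB51 fell by 1.14 ± 0.17 at 1 h (adjusted p = 6.8e-05). SLIM1, the known regulator of the sulfur-starvation response, had changes of 0.15 at 1 h and 0.02 at 3 h in wild type (adjusted p = 0.21 and 0.87). In ecap-2 4 rose and 1 fell at 1 h. The rise of MYB122 among these lost its call with a pseudocount of 5 (adjusted p = 0.065) and without replicate 1 of 0 h (0.073). At 3 h in ecap-2 3 rose and 2 fell. SLIM1 was among the falls there, from 7.87 ± 1.1 to 6.42 ± 0.37 FPKM, by 0.25 (adjusted p = 0.028). That call was lost in a fit of the compared libraries only (0.10) and without any 1 of 4 libraries (0.064 to 0.13).

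Sulfur genes differ between roots and shoots, so markers of both were read. Of 7 tested root markers, 0 rose and 2 fell at 1 h in wild type, and 1 rose and 4 fell at 3 h. Summed without PYK10, the root markers ranged from 134 to 160.0 FPKM at 0 h, from 107 to 121 FPKM at 1 h and from 90.0 to 106 FPKM at 3 h in wild type, and from 145 to 162, 121 to 138 and 135 to 162 FPKM in ecap-2. PYK10 went from 2116 to 3982 FPKM in wild type between 0 and 3 h, and NRT2.1 was at or near 0 in every group. Of 6 tested shoot markers, 1 rose and 0 fell at 1 h in wild type, 3 rose and 2 fell at 3 h, and their sum ranged from 29471 to 33985 FPKM at 0 h and from 36153 to 38328 FPKM at 3 h. In ecap-2 that sum ranged from 36430.0 to 41450.0 FPKM at 0 h and from 46870.0 to 52572 FPKM at 3 h. Their part in the results above was not tested, and in whole seedlings fewer cells of a type and less RNA per cell cannot be told apart. All 4 genes read as a check of JA treatment, JAZ10, OPR3, VSP2 and MYC2, rose at both times in both genotypes.

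The genotypes themselves differed for some of the 9 genes. At 0 h ecap-2 had higher ATPS1 and GSH1 and lower APK2 than wild type. These were 2 genes higher and 1 lower of 9, beside 21.2% and 23.0% of all genes, so the members' share called was below that of all genes (44.2%). The genotype labels were checked on AT3G58110, taken as ECAP from general knowledge, which ranged from 12.3 to 16.1 FPKM in wild type and from 2.34 to 2.89 FPKM in ecap-2. Total FPKM per library was 687996 to 765209 for wild type. It was 760383 to 801831 for the first 2 times of ecap-2 and 853858 to 912834 for its 3 h libraries, so the ecap-2 libraries at 3 h stood apart. The read depth behind these values is unknown, and relative depth estimated from low values ran from 0.742 to 1.28. Rescaling to a common total shifted the median of all genes by -0.107 at 0 h, -0.084 at 1 h, -0.202 at 3 h and -0.132 on average over times in these comparisons, and by -0.161 for ecap-2 at 3 h against 0 h and -0.153 against 1 h. It also took the share of higher genes among those called from 47.9% to 28.2% at 0 h, from 45.0% to 28.4% at 1 h, from 50.2% to 24.1% at 3 h and from 49.0% to 29.0% on average.

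ATPS1 was higher in ecap-2 by 0.41, 0.32 and 0.51 (SE 0.10) at 0, 1 and 3 h, with adjusted p = 0.0035, 0.018 and 3.8e-04. The libraries lay apart at 0 and 3 h and overlapped at 1 h. After rescaling to a common total the ATPS1 difference was 0.29, 0.22 and 0.28 (adjusted p = 0.016, 0.054 and 0.014), and after quantile normalization 0.24, 0.23 and 0.23 (adjusted p = 0.051, 0.070 and 0.049). Averaged over times ATPS1 was higher by 0.41 ± 0.06 (adjusted p = 7.8e-06), and the call held in those fits, at 0.26 and 0.23. At 1 h the call was also lost without replicate 1 or 3 of wild type and without replicate 1 or 2 of ecap-2, with an adjusted p of 0.052 to 0.093.

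GSH1 was higher in ecap-2 by 0.43, 0.23 and 0.30 (SE 0.07) at 0, 1 and 3 h, with adjusted p = 1.5e-04, 0.018 and 0.0015. All ecap-2 libraries lay above all wild type libraries at 0 and 3 h. Rescaling to a common total left 0.31, 0.13 and 0.07 (adjusted p = 0.0013, 0.13 and 0.39). Quantile normalization left 0.24, 0.10 and 0.01 (adjusted p = 0.0082, 0.24 and 0.88). Trimmed mean scaling left 0.44 at 0 h and 0.31 at 3 h (adjusted p = 5.0e-05 and 5.9e-04). The GSH1 call at 3 h was thus lost under 2 of 3 other scalings, and that at 0 h under none of them. At 1 h the GSH1 call was also lost in a fit of the compared libraries only (adjusted p = 0.098) and without any 1 of 4 libraries, with an adjusted p of 0.057 to 0.094.

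APK2 was lower in ecap-2 by 0.48 ± 0.09 at 0 h (log2 difference -0.48, adjusted p = 3.0e-04) and at -0.28 ± 0.09 at 1 h (adjusted p = 0.016), and at 3 h the difference was -0.02 ± 0.09 (adjusted p = 0.83). The 0 h and 1 h libraries of the genotypes lay apart. Rescaled to a common total, the APK2 difference was -0.60, -0.38 and -0.26, past the threshold at all 3 times. Averaged over times it was -0.26 ± 0.05 (adjusted p = 1.8e-04), or -0.41 after rescaling. The call at 1 h was lost without the third ecap-2 library (adjusted p = 0.061).

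At 1 h, too, 2 genes were higher and 1 lower, beside 17.9% and 21.9% of all genes (39.9% in either direction). At 3 h 2 were higher and 0 lower, beside 28.8% and 28.6% (57.5%), and by the average over times 2 were higher and 1 lower, beside 33.6% and 35.1% (68.7%). For the reductases none of the differences at single times passed the threshold (limma, 0 of 9 tests), and at an unadjusted p under 0.05 APR1 at 1 h was the single case, at 0.43 with a 95% interval of 0.04 to 0.83 (adjusted p = 0.074). Without the third ecap-2 library at 1 h the APR1 and APR3 differences were 0.63 and 0.56 (adjusted p = 0.014 and 0.048). APK1, ATPS3 and GSH2 did not pass as deposited. Under a common total APK1 was lower in ecap-2 at 0 h, at -0.24 (adjusted p = 0.0024), and lower at 3 h, at -0.30 (adjusted p = 2.0e-04), ATPS3 was lower at 3 h, at -0.38 (adjusted p = 0.028), and GSH2 was lower at 3 h, at -0.31 (adjusted p = 5.6e-04).

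**Figure D5:**
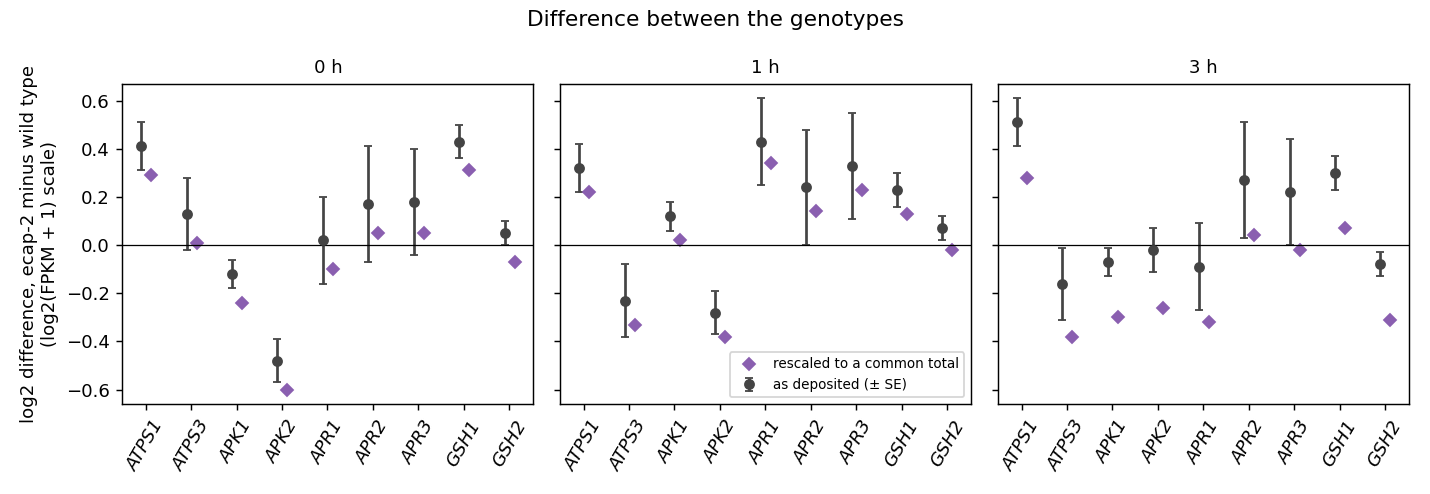
Difference between ecap-2 and wild type on the log2(FPKM + 1) scale at each time, as deposited (circles, ± SE) and after rescaling to a common total (diamonds). ATPS1 and GSH1 lie above 0 and APK2 below 0 at 0 h on both scales, and at 3 h GSH1 moves from 0.30 to 0.07.

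Other genes of the pathway that differed between the genotypes lay on both sides. Of the 5 other assimilation enzymes, 1 was higher and 1 lower at 0 h. ATPS2 was lower in ecap-2 by -0.74 ± 0.08 at 0 h and -1.09 ± 0.08 at 3 h (adjusted p = 1.3e-06 and 1.3e-08), and ATPS4 was higher by 0.29 ± 0.07 and 0.52 ± 0.07 (adjusted p = 0.0028 and 9.0e-06). The share of ATPS2 in the sulfurylase family was 24.4% ± 3.5 in wild type and 12.8% ± 1.4 in ecap-2 at 0 h, and 17.8% ± 0.94 and 6.76% ± 0.58 at 3 h. The summed sulfurylase level was 368 ± 14 FPKM in wild type and 416 ± 28 FPKM in ecap-2 at 0 h. ATPS1 was thus the greater part of the family in both, and more so in ecap-2.

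Of the 11 tested transporters, 2 were higher and 5 lower in ecap-2 at 0 h. SULTR1;2 was lower at all 3 times, by -0.88 ± 0.30, -0.85 ± 0.30 and -1.44 ± 0.30 (adjusted p = 0.029, 0.037 and 9.5e-04), and the call at 0 h was lost without any 1 of 4 libraries and that at 1 h without any 1 of 3. SULTR1;1, known as a starvation-induced uptake transporter, stood at 1.01, 1.46 and 1.03 FPKM in wild type and at 1.99, 3.23 and 4.35 FPKM in ecap-2 at 0 h, a difference of 0.92 ± 0.19 (adjusted p = 8.2e-04). Of the 9 starvation markers, 2 were higher in ecap-2 at 0 h and 0 lower. These were SULTR1;1 itself, which stands in both lists, and LSU2. LSU2 was higher by 1.12 ± 0.33 (adjusted p = 0.014, or 0.063 without the first wild type library). Of 6 genes of PAPS use and PAP removal, 0 were higher and 5 lower at 0 h, with SOT16 at -0.67 ± 0.07 and SOT17 at -0.73 ± 0.08 (adjusted p = 1.7e-06 and 4.8e-06). APK2, which with APK1 feeds these enzymes, was lower at 0 h as well, and APK1 was not called there (-0.12, adjusted p = 0.09). At 3 h 1 of the 6 genes was higher and 5 were lower, while APK2 as deposited stood at -0.02 (adjusted p = 0.83). A link between these differences was not tested.

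In the fit of the deposited values none of the 9 genes passed the threshold for a JA response that differed with genotype. At 1 h and at 3 h 0 of 9 passed (limma, the difference of responses), beside 0.314% and 2.42% of all genes, and 1 of 9 had an unadjusted p under 0.05 at each time. Among all genes called, a larger value in ecap-2 was found for 53.6% at 1 h, and for 73.3% in a fit of the compared libraries only. At 3 h the share was 53.5%, and 22.1% at a common total. At 1 h this was APK1, with a difference of 0.24 ± 0.08 (95% interval 0.07 to 0.40, adjusted p = 0.34). At 3 h it was APK2, with 0.45 ± 0.12 (0.20 to 0.71, adjusted p = 0.055), a larger rise in ecap-2 from a lower start. In several other fits that APK2 value passed, among them with genes of a mean of at least 5 FPKM only (adjusted p = 0.049) and without the first ecap-2 library at 0 h or the third at 3 h (adjusted p = 0.019 and 0.010), and over all fits tried its adjusted p ran from 0.010 to 0.26. For the reductases the intervals were wide, from -0.65 to 0.79 for APR2 at 1 h and from -0.62 to 0.82 at 3 h, so differences of that size could not have been seen. For GSH2 they ran from -0.14 to 0.19 and from -0.29 to 0.04.

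Genes whose time course was most like each of the 9 were read over the 6 group means, among 13217 genes with a mean of at least 5 FPKM. For APK1 the nearest were NSH3, with a root mean square difference of 0.05 on the log2 scale, and JAZ3, a JAZ repressor gene, with 0.11. NSH3 stood at 15.5, 67.8 and 58.9 FPKM at 0, 1 and 3 h in wild type. For GSH1 they were TLP7 (0.10) and GSTF10, a glutathione transferase (0.13), and for ATPS1 NRAMP3 (0.05) and OCT5 (0.06). For APR2 the nearest was BETA-OHASE 1, a beta-carotene hydroxylase, with 0.14, at 173, 80.3 and 38.2 FPKM in wild type. For APK2 the nearest were AT3G59710, at 0.16, and AT5G62350, at 0.25. These likenesses are over 6 means and carry no test.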

How the data were processed

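Per the file headers, the deposited tables give 1 FPKM value per gene and library (fragments per kilobase of transcript, scaled to the mapped fragments of the library). TopHat2 and Cufflinks are listed in the submitters' processing notes, with TAIR10 as the genome; their versions are not given in the sources used here. FPKM keep no absolute depth, and a few abundant transcripts can shift all other values of a library. Groups follow the labels' genotype and time.

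Of 22209 genes, 17835 (80.3%) had at least 1 FPKM in at least 3 libraries and were tested as log2(FPKM + 1), which understates changes of low genes. A model of 6 group means over 18 libraries was fitted with limma 3.58.1 (R 4.3.3, statmod 1.5.0, trend and robust moderation, 12 residual degrees of freedom). Two-sided p-values were adjusted by Benjamini-Hochberg over all tested genes, separately for 12 comparisons, with a threshold of 0.05. Tests were checked on simulated data. The relative depth of libraries came from low genes, under 0.15 FPKM on average. The replicate numbers, from the labels, were checked by correlating deviations from group means: all 3 same-number pairs exceeded 0.1 in 2 of 15 pairs of groups, of which 1 is compared here, wild type at 0 and 1 h (0.135 to 0.261). Shares and ratios within a family are descriptions.

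The members and lists were chosen with earlier results of these data known. All 9 members are named. Listed genes are named beside their list's count, from glutathione breakdown and PAPS use up to 5 of smallest p-value per comparison and 2 of highest mean. The 2 most alike genes per member are those of smallest root mean square difference. AT3G58110 is the label check.

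The other settings tried were pseudocounts (0.1, 5), filters (none, or an average of 5 FPKM or more), a common total, quantile and trimmed mean scaling (0.3 trimmed), plain moderation, the compared libraries only, a replicate block, and leaving out each library in turn. Promoter sequences, gene models and overlaps came from RefSeq's TAIR10.1 sequence, and 22122 gene IDs matched its gene table. Figures used matplotlib 3.10.9 in Python 3.11.15.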

Additional observations from a re-analysis of the deposited data

Results flagged for a closer look

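The response to JA differed between the genotypes by its own test for 2 listed neighbours of the 9 genes. PAPST1, the plastid exporter of PAPS, rose more in ecap-2 at 3 h, by a difference of 0.69 ± 0.13 on the log2 scale (adjusted p = 0.011): it went from 18.6, 18.2 and 17.0 to 39.8, 41.4 and 40.4 FPKM in wild type and from 14.4, 11.5 and 13.4 to 51.9, 50.9 and 44.4 FPKM in ecap-2. SULTR3;3, a sulfate transporter, fell by 0.35 in wild type and stood at 0.20 in ecap-2 at 3 h, a difference of 0.55 ± 0.13 (adjusted p = 0.037), and this call was lost under a common total (adjusted p = 0.055), in a fit of the compared libraries only (0.067) and without any 1 of 9 of the 12 libraries compared. The ecap-2 libraries at 3 h had the highest total FPKM of the series. PAPST1 kept its call under a common total and in the other fits tried, and SULTR3;3 did not. The cause of either difference was not tested.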

How the results depend on the processing

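Of 108 results of the 9 genes (9 in 12 comparisons), 54 were called; 42 of these were called under every alternative run, 12 lost the call under some, 14 others gained one, and 1 reversed. The reversal was GSH2 averaged over times, 0.02 as deposited, -0.13 at a common total and -0.09 under quantile normalization. Of the 9 genes called between genotypes, 3 at 1 h became 1 under either scaling, 2 at 3 h became 5 and 4, and 3 on average became 6 and 5. The cause was not tested. Without 1 library these counts ran from 1 to 4 at 1 h and from 3 to 5 on average. For the difference of responses at 3 h, 0 of the 9 became 1 with a mean of at least 5 FPKM or the replicate block, and ran from 0 to 1 without 1 library. All genes called there at 1 h, 56, became 32 and 114 with a pseudocount of 0.1 and 5, 15 with the compared libraries only, and 22 to 55 without 1 library (22 to 36 without replicate 2 of any of the 4 groups or replicate 1 of wild type at 1 h). At 3 h 432 became 658 with a pseudocount of 5, 778 at a common total, 789 with the replicate block, and 134 to 1264 without 1 library (1264 and 869 without ecap-2 replicate 1 of 0 h and 3 of 3 h; 134 to 237 without any other ecap-2 library, 190 to 222 without wild type replicate 2 of 0 h or any of 3 h). Replicate numbers were not shown to pair libraries over the series: the correlation of deviations had a median of 0.079 over 45 same-number pairs (-0.152 to 0.335, 19 over 0.1) and of -0.034 over 90 others (12 over 0.1), and 11 of 18 libraries correlated best with their own number, a hint from the data and not the design. With the replicate block APK2 had a difference of responses of 0.45 at 3 h (adjusted p = 0.028). Depth is unknown, so low values carry no counting error here.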
